A study of Mus musculus with 18 samples.

Results

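Fibroblast matrix genes were followed across cultures of mouse pluripotent stem cells. The set holds 33 genes: collagens, collagen cross-linking enzymes, matrix glycoproteins and proteoglycans, matrix proteases and their inhibitors, and surface, cytoskeletal and transcription factor genes of fibroblasts. Each gene was read from its probe set with the highest mean log2 intensity over the 18 arrays, among probe sets with a single gene symbol, and 33 of the 33 genes were found among the 18193 genes measured. Total RNA from 6 cell lines was hybridised to Affymetrix expression arrays, 3 arrays per line, called biological replicates in the series' design text. The embryonic stem (ES) lines were ESC2 and R1, and the induced pluripotent stem (iPS) lines were IP20D-3, IP36D-3, IP14D-1 and IP14D-101. The strain label was 129X1/SvJ x 129S1 F1 for R1, B6 x 129S2 F1 for IP14D-101, and B6 x D2 F1 for IP14D-1, IP20D-3, IP36D-3 and ESC2. All 6 lines grew with LIF on mouse embryonic fibroblast (MEF) feeder cells treated with mitomycin C, which stops cell division. Cultures received fetal bovine serum or knockout serum replacement; the medium of each line is not given in the labels, nor whether feeder cells were taken out before RNA was extracted. Each line stands for its own derivation, and differences between lines are not differences between cell types. Arrays of MEF cells were not analysed here.

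Fibroblasts build the fibrous matrix of connective tissue: they secrete procollagen chains, which are trimmed, assembled into fibrils and cross-linked by lysyl oxidases. Proteoglycans such as decorin and biglycan bind the fibrils, matrix metalloproteinases cut the matrix, and TIMP proteins inhibit those proteases. Feeder fibroblasts no longer divide but continue to transcribe these genes, and RNA taken from a whole dish can contain theirs. Several of the genes, fibronectin and vimentin among them, are also transcribed by embryonic cells, so they do not mark fibroblasts alone. In RNA from mixed cells, a larger number of fibroblasts and more RNA per cell cannot be told apart, and neither can RNA of feeders and RNA of the stem cells themselves.

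Levels are log2 intensities, and a difference of 1 on this scale is a doubling of intensity. The median intensity of the arrays lay between 29.2 and 30.5 before the log2 step. The ratio of the 3' to the 5' beta-actin control, which is larger where RNA is less intact, was 1.53 ± 0.0433 (SD, n = 3) in ESC2, against line means of 1.13 to 1.28 elsewhere. The 18S ribosomal control lay between 37.8 and 88.5 on the arrays of R1, IP14D-1 and IP14D-101 and between 161 and 539 on those of ESC2, IP20D-3 and IP36D-3.

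Levels of the set were first compared with those of genes with no known role in these cells. This shows whether a probe set gives signal, not which cells the RNA came from. For this, 39 olfactory receptor genes served as a silent reference, and their 95th percentile lay between 4.11 and 4.55 in the 6 lines. Of the 33 fibroblast matrix genes, 21 stood above that reference in all 6 lines. Another 5 genes stood at or below it in all 6 lines: Col6a1, a chain of type VI collagen, periostin (Postn), the transcription factor gene Prrx1, lumican (Lum) and fibroblast activation protein (Fap). Their line means were 3.53 to 4.01 for Col6a1, 3.5 to 4.43 for Postn, 3 to 3.5 for Prrx1, 3.19 to 3.38 for Lum and 2.37 to 2.65 for Fap. Type III collagen (Col3a1) passed the reference only in IP14D-1 and the cadherin Cdh11 only in ESC2, whereas S100a4 and Snai2 each passed it in 2 lines. Between 22 genes (66.7%, IP14D-101) and 27 genes (81.8%, ESC2) passed it per line, against 68% to 71.7% of all genes. In no line did all 33 genes pass the reference. Lox lay at or below it in IP14D-101 and IP20D-3, Col5a2 in IP20D-3 and Dcn in IP14D-101.

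**Figure D1:**
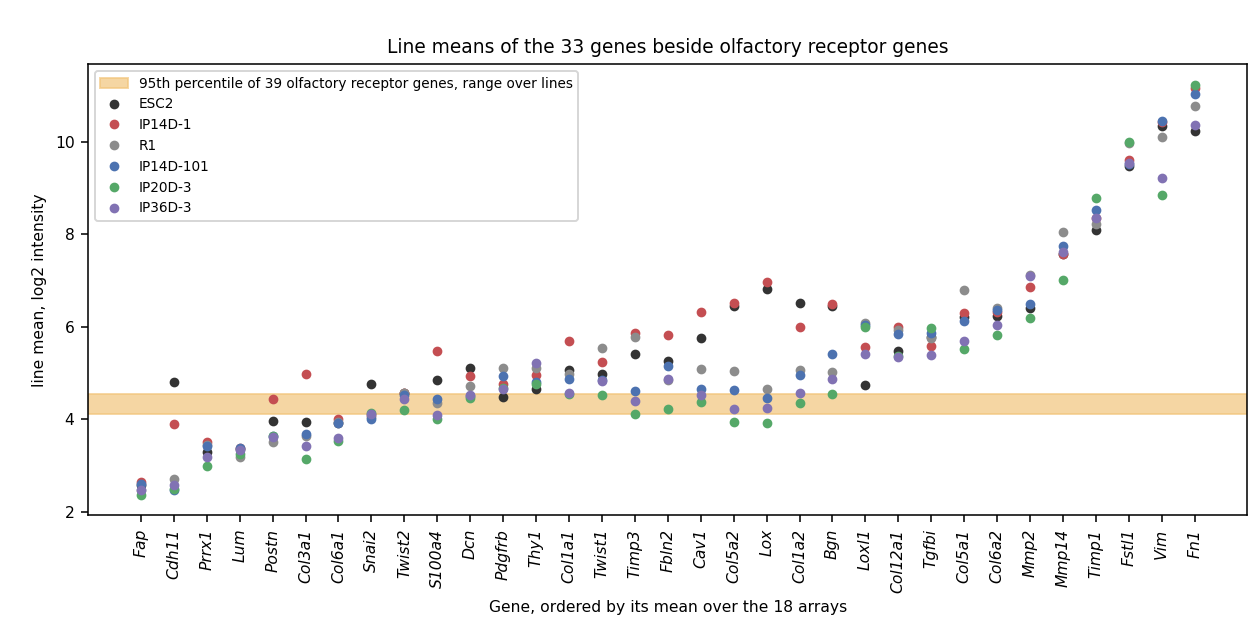
Line mean (log2 intensity, vertical axis) of each of the 33 genes in the 6 lines, with genes ordered for display by their mean over the 18 arrays; the shaded band is the range over lines of the 95th percentile of 39 olfactory receptor genes (4.11 to 4.55). Fap, Prrx1, Lum, Postn and Col6a1 lie at or below their line's reference throughout, whereas Fn1, Vim, Fstl1, Timp1 and Mmp14 lie at 7.01 or above in every line.

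Promoter sequences were available in the RefSeq table (GRCm38.p6) for 19 of the 33 genes. The 250 bases upstream of the annotated start are printed 5′ to 3′ for 4 of them. Col1a2 (chr6:4505368-4505617, plus strand) and Bgn (chrX:73483351-73483600, plus strand) are shown because their arrays in ESC2 and IP14D-1 stood above all others, Col3a1 (chr1:45311288-45311537, plus strand) because it passed the silent reference in IP14D-1 alone, and Vim (chr2:13574061-13574310, plus strand) because its level was far above the reference in every line. Capitals mark matches on either strand to 4 motifs: the TATA box, searched as TATAAA, the CCAAT box, searched by the letters of its name, the GC box, searched as GGGCGG, and the E-box, searched as CANNTG and bound by Twist and Snail family proteins among others.
Col1a2: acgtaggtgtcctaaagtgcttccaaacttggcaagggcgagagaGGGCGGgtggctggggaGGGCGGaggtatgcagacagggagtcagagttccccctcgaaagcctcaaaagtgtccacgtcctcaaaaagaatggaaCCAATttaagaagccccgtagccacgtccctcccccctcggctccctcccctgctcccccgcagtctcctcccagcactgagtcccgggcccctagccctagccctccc
Col3a1: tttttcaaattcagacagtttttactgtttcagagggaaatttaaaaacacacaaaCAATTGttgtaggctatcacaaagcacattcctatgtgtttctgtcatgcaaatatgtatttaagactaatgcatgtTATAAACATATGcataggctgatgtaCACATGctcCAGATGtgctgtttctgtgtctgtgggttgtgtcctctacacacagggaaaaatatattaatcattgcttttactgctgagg
Bgn: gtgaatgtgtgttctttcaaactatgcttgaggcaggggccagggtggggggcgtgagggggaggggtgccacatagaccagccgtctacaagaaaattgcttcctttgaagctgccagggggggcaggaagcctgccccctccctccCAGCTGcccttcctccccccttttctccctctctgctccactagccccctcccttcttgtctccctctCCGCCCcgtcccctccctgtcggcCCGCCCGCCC
Vim: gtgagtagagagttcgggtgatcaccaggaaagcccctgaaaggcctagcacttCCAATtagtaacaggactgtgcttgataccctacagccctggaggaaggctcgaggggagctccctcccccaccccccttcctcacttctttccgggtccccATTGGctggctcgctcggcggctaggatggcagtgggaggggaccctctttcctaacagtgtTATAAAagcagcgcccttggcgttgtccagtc
The Col1a2 stretch held a CCAAT box 109 bases before the start and GC boxes at 205 and 188. The Col3a1 stretch held no GC box or CCAAT box, but TATAAA at 117 and E-boxes at 194, 111, 91 and 82. In Bgn there were GC boxes at 34, 10 and 6, the last pair sharing bases, and an E-box at 102. The Vim stretch held TATAAA at 32 and CCAAT boxes at 196 and 94. Col1a2 and Bgn thus both held GC boxes, and Col3a1 and Vim both held TATAAA. Of the 19 genes, 6 held TATAAA (14.3% of the 27025 genes in the table did), 6 a CCAAT box (37.5%), 13 a GC box (35.4%) and 7 an E-box (69.3%). These matches are descriptions of letters in the window and were not tested.

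The genes did not form a block across the lines. ESC2 and IP14D-1 both stood above the other 4 lines for 13 of the 33 genes (39.4%): Col1a1, Col1a2, Col3a1, Col5a2, Lox, Cdh11, Postn, S100a4, Twist2, Dcn, Cav1, Fbln2 and Bgn. The same order of line means was found for 4.04% of all genes, and this order was picked after the values were seen. Postn is below the silent reference in all 6 lines, which leaves 12. Among these 12, Col3a1 in ESC2 (3.95) and Cdh11 in IP14D-1 (3.9) also lay below their line's reference. Twist2 was nearly level, at 4.57 in ESC2 and 4.56 in both IP14D-1 and R1. IP14D-1 had the highest line mean for 14 genes (42.4%, against 7.41% of all genes) and the lowest for none. For 4 of the 14, Col6a1, Postn, Prrx1 and Fap, these are orders among values at or below the reference in every line, which leaves 10. IP20D-3 had the lowest line mean for 21 genes (63.6%, against 27.2% of all genes), and 18 of these passed the reference in at least 1 line. Of the remaining genes, 7 were highest in R1, among them Col5a1, Mmp2, Mmp14 and Twist1, and 4 were highest in IP20D-3, namely Timp1, Fn1, Tgfbi and Fstl1. The split of ESC2 and IP14D-1 from IP20D-3 and IP36D-3 lay within a strain label that these lines share.

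**Figure D2:**
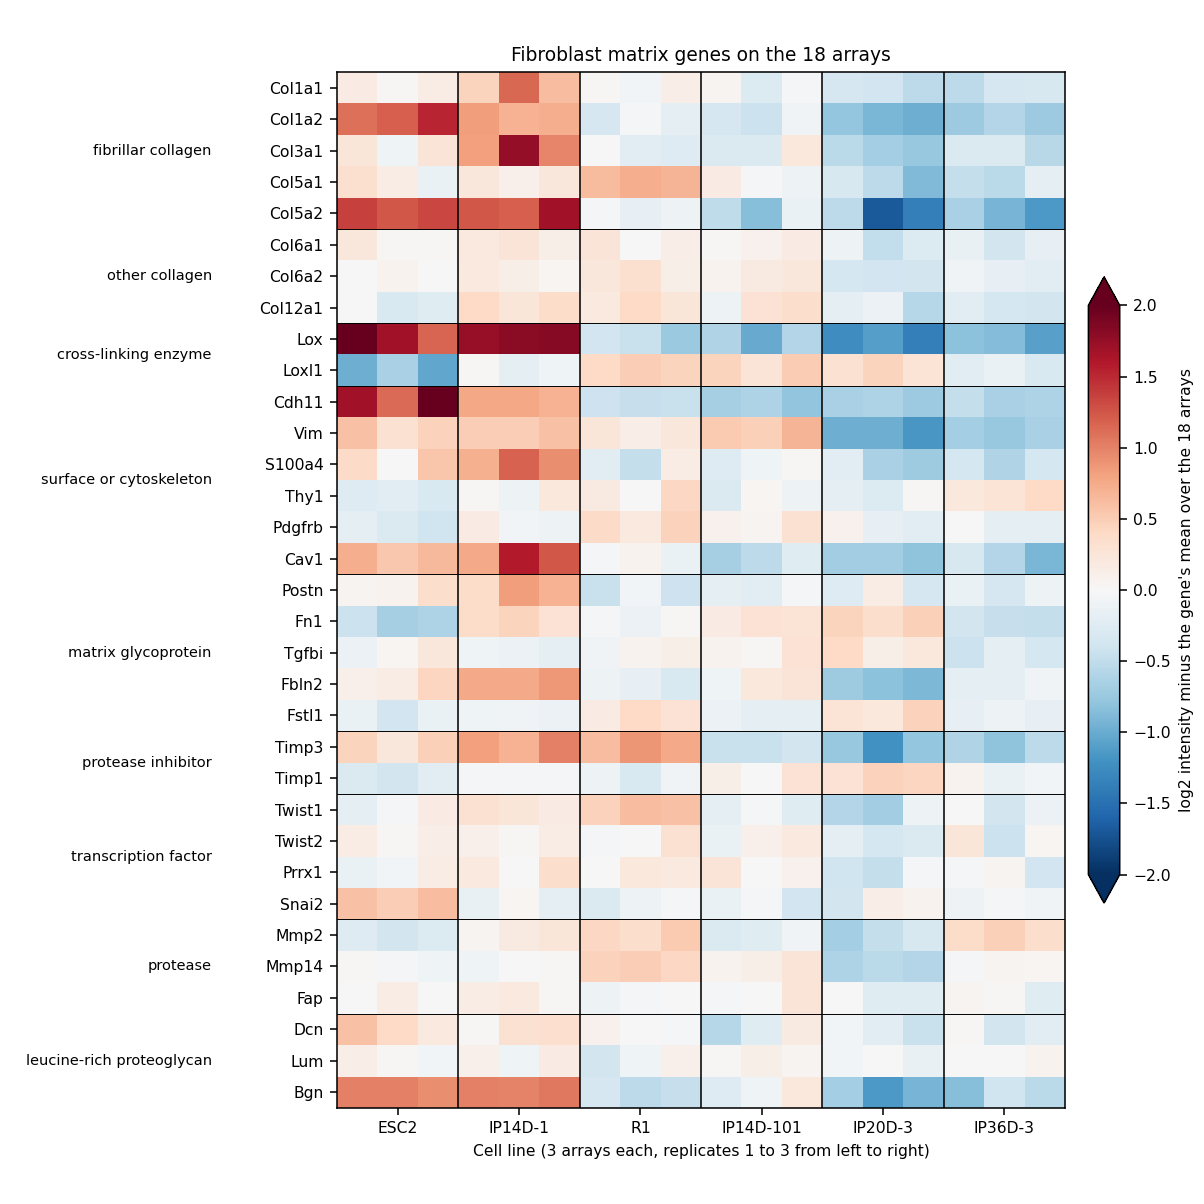
Log2 intensity of each of the 33 genes on each of the 18 arrays, minus the gene's mean over the 18 arrays (colour, red higher and blue lower, limits at -2 and 2), with genes grouped by role and lines side by side. Lox, Col5a2, Col1a2, Cdh11, Cav1 and Bgn are red on the 6 arrays of ESC2 and IP14D-1, while Fn1, Loxl1 and Snai2 show other orders and Lum and Fap show almost no colour.

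Differences between lines came from 1 limma model over the 18 arrays, and a gene was called where the p-value adjusted over all 18193 genes was under 0.05 and the log2 difference was at least 1. No label states separate cultures behind the arrays of a line, so these p-values measure the spread between arrays of a line. In 16 of the 56 calls made between lines, the lower line lay at or below its silent reference: these concern Cdh11, Col3a1, Col5a2, Lox and S100a4. Their fold is given only as a lower bound for the probe set used. It is taken against the 95th percentile of the olfactory receptor genes in the lower line, and no fold is given where both lines lay below it. The log2 differences of these calls are fitted values, and the p-values test those differences, not the bounds. Other probe sets of a gene can give smaller folds. Over all 6 lines, 16 of 33 genes (48.5%) varied by limma's F test with a range of line means of at least 1, against 25.9% of all genes. The median range of the 33 genes was 0.99, against 0.64 for all genes.

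Among the fibrillar collagens, Col1a2, which encodes a chain of type I collagen, read 6.34, 6.43 and 6.76 in ESC2 and 6.08, 5.94 and 5.96 in IP14D-1. It read 4.91, 5.21 and 5.06 in R1 and 4.91, 4.81 and 5.17 in IP14D-101, and lay between 4.26 and 4.65 on the 6 arrays of IP20D-3 and IP36D-3. ESC2 thus stood above IP14D-1, and both above the other 12 arrays, without overlap. The mean in IP14D-1 was 3.13-fold that in IP20D-3 (log2 difference 1.65 ± 0.11 SE, limma adjusted p = 3.13e-09). Col1a1, the partner chain, was read at 5.40, 6.10 and 5.58 in IP14D-1 and at 5.13, 4.98 and 5.10 in ESC2, against 4.63, 4.58 and 4.44 in IP20D-3 and 4.43, 4.63 and 4.64 in IP36D-3. R1 (4.98, 4.91 and 5.09) and IP14D-101 (5.02, 4.68 and 4.94) overlapped with ESC2, so only IP14D-1 stood apart from all other arrays. Its call in IP14D-1 against IP20D-3 (1.14) and IP36D-3 (1.13) rested on the high second array, without which the differences were 0.94 and 0.92. The higher line mean was in ESC2 for Col1a2 and in IP14D-1 for Col1a1.

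Col5a2, a chain of the type V collagen that starts fibrils, varied over 2.57 in line means, the widest range among the collagens. It read 6.50, 6.38 and 6.48 in ESC2 and 6.38, 6.34 and 6.82 in IP14D-1, which overlapped. In IP20D-3 the 3 arrays were spread from 3.46 to 4.61, with a mean of 3.95 that did not pass the reference, and R1 lay between at 5.12, 4.97 and 5.03. The other Col5a2 probe set lay below the silent reference in every line, with means of 3 to 3.62. The partner chain Col5a1 had another order, with R1 (6.79 ± 0.05) above IP14D-1 (6.29 ± 0.08), ESC2 (6.22 ± 0.23) and IP14D-101 (6.12 ± 0.14), and IP20D-3 lowest at 5.53 ± 0.29 (SD, n = 3). Its other probe sets also had R1 highest and IP20D-3 lowest. On the brighter of these, ESC2 (6.10) was close to R1 (6.19) and above IP14D-1 (5.55). Col3a1 read 4.62, 5.56 and 4.78 in IP14D-1, above the other 15 arrays, which lay between 3.05 and 4.06. The arrays of ESC2 (4.05, 3.72 and 4.06) overlapped with those of IP14D-101. Its second probe set was flat, with line means of 2.32 to 2.48. The remaining collagens varied less: Col6a1 and Col6a2, chains of the type VI collagen of beaded microfilaments, and Col12a1, whose collagen binds to the surface of fibrils, had ranges of line means of 0.48, 0.58 and 0.65, and none was called in any contrast.

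Lox, the lysyl oxidase that cross-links collagen and elastin, differed more between lines than any other gene of the set. It read 7.22, 6.86 and 6.35 in ESC2 and 6.92, 6.98 and 7 in IP14D-1. The other lines were at 4.8, 4.74 and 4.43 in R1, at 4.58, 4.17 and 4.6 in IP14D-101, at 4.36, 4.31 and 4.09 in IP36D-3 and at 3.93, 4.07 and 3.81 in IP20D-3. ESC2 and IP14D-1 overlapped and stood apart from the rest, R1 overlapped with IP14D-101, and IP20D-3 lay just below IP36D-3. Lox in IP20D-3 did not pass the silent reference. On the probe set used and against that reference, Lox was at least 7.24-fold higher in IP14D-1 than in IP20D-3 (limma adjusted p = 2.47e-10). It was at least 6.5-fold lower in IP20D-3 than in ESC2 (adjusted p = 1.90e-10). A second Lox probe set had the same split, with 6.41 in ESC2 and 5.85 in IP14D-1 against 3.71 to 4, while the third lay between 2.49 and 2.66. Loxl1, a lysyl oxidase relative tied to elastic fibres, ran the other way: 4.67, 5 and 4.6 in ESC2, the lowest line, against line means of 5.42 to 6.08 elsewhere. The other Loxl1 probe set varied less, at 3.96 in IP20D-3, 4.16 in ESC2 and 4.17 to 4.56 in the other lines. With the mean of all probe sets, Loxl1 was not called in any contrast with ESC2.

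Of the surface and cytoskeletal genes, Cdh11, a cadherin of mesenchymal cells, read 4.84, 4.29 and 5.28 in ESC2 and 3.94, 3.93 and 3.85 in IP14D-1, and lay between 2.38 and 2.74 on the other 12 arrays. The values in IP14D-1 and on these 12 arrays lie below the silent reference, and the other Cdh11 probe set was flat at 2.23 to 2.45. Cav1, which builds caveolae, read 5.88, 6.71 and 6.36 in IP14D-1 and 5.85, 5.66 and 5.76 in ESC2, followed by R1 at 5.09 ± 0.10 and the other 3 lines at 4.38 to 4.65 (line means). S100a4, a calcium-binding protein used as a fibroblast marker, had its highest mean in IP14D-1 (5.47 ± 0.24) and was called there against IP20D-3 (4 ± 0.26) and IP36D-3 (4.09 ± 0.15). Both of these lie below the silent reference, so the differences are at least 2.57-fold and 2.39-fold. Thy1, a surface glycoprotein, and Pdgfrb, the receptor for platelet-derived growth factor B, had ranges of 0.56 and 0.64 and were called in no contrast.

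Vim, which encodes the intermediate filament protein vimentin, stood far above the reference in every line. It read 10.48, 10.21 and 10.36 in ESC2, 10.39, 10.40 and 10.49 in IP14D-1 and 10.43, 10.37 and 10.58 in IP14D-101, all overlapping, with R1 at 10.14, 10.03 and 10.13. IP36D-3 followed at 9.22, 9.14 and 9.26 and IP20D-3 at 8.93, 8.93 and 8.73. The 12 arrays of the first 4 lines thus stood above the 6 arrays of IP20D-3 and IP36D-3. The other 2 Vim probe sets also had IP20D-3 lowest and IP36D-3 next, but put ESC2 first and IP14D-1 second, above IP14D-101 and R1. On those probe sets Vim had the order of lines described above for the 13 genes.

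**Figure D3:**
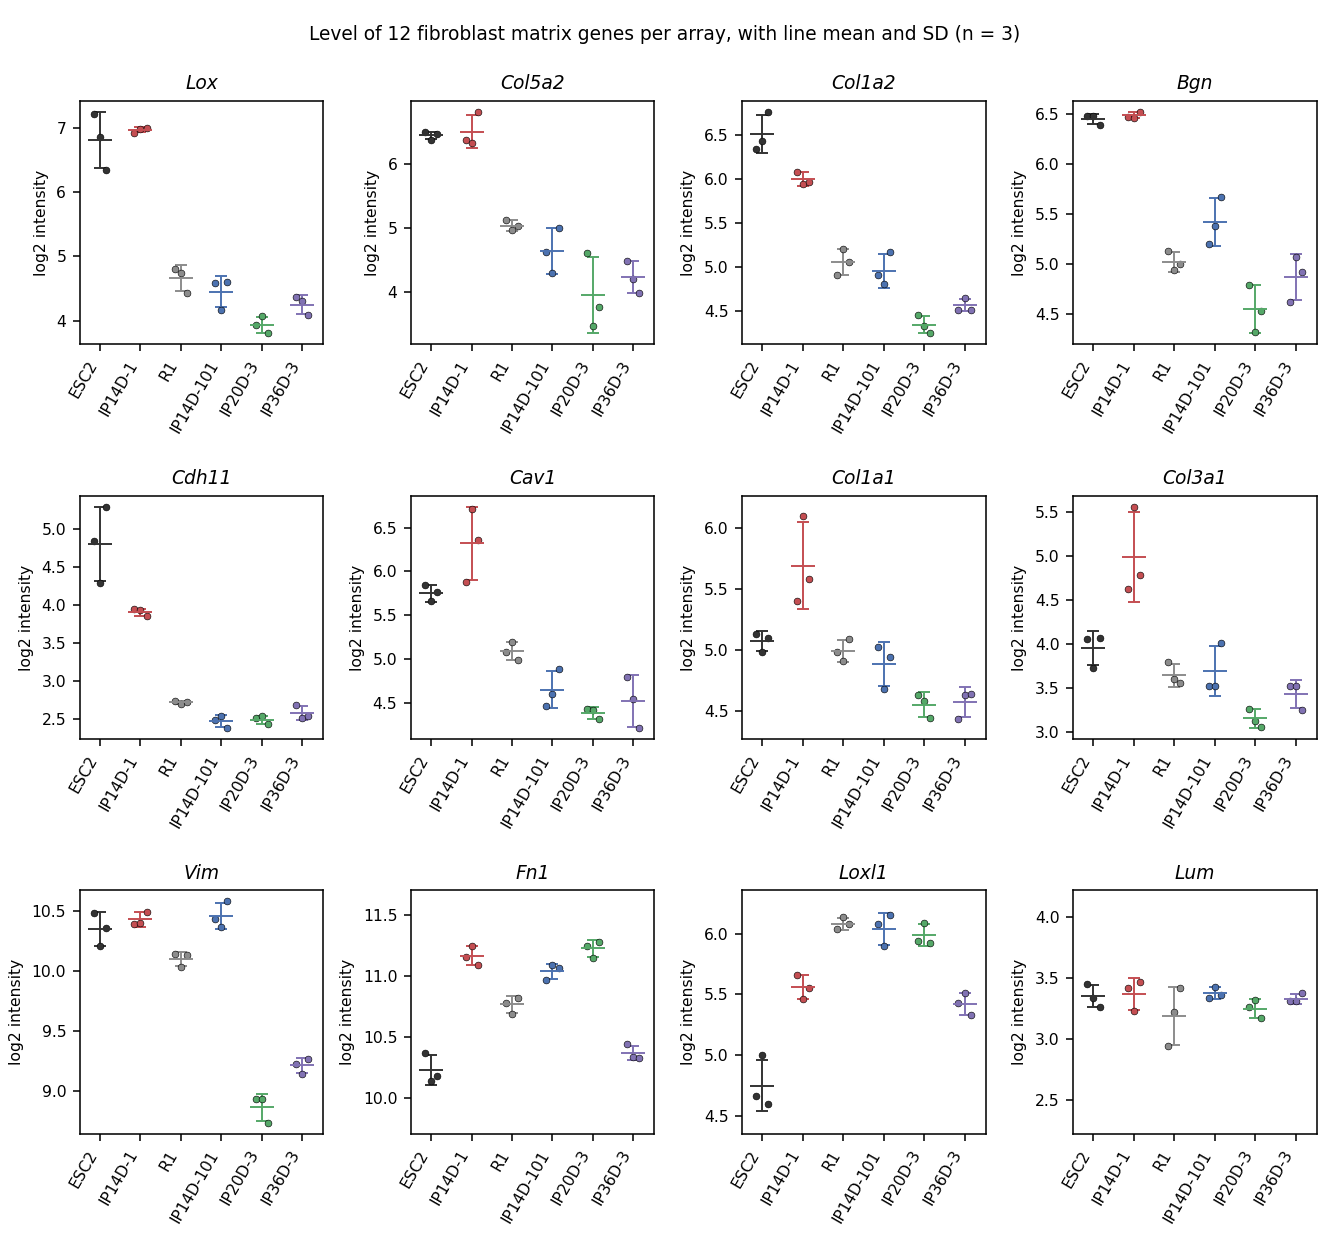
Log2 intensity of 12 of the genes on each array (points), with the line mean and SD over 3 arrays (bars); vertical axes differ between panels. Lox, Col5a2, Col1a2 and Bgn are high in ESC2 and IP14D-1. Cdh11 is highest in ESC2 and next in IP14D-1, where it lies below the silent reference. Vim is low only in IP20D-3 and IP36D-3, Fn1 and Loxl1 are low in ESC2, and Lum stays between 2.94 and 3.47.

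The matrix glycoproteins did not share an order of lines. Fn1, fibronectin, read 10.37, 10.14 and 10.18 in ESC2 and 10.44, 10.34 and 10.33 in IP36D-3, whose arrays overlapped. The other lines lay higher, with 11.16, 11.25 and 11.09 in IP14D-1, 11.25, 11.15 and 11.28 in IP20D-3, 11.04 ± 0.06 in IP14D-101 and 10.77 ± 0.07 in R1. Its difference between IP20D-3 and ESC2 was 0.99 ± 0.08 (limma adjusted p = 6.25e-09), just short of the call. The other Fn1 probe set had IP20D-3 highest too (8.10) but R1 lowest (6.62). Fbln2, a fibulin of the fibronectin network, was by contrast lowest in IP20D-3, at 4.31, 4.21 and 4.13, and highest in IP14D-1, at 5.78, 5.79 and 5.90, with the other lines between 4.84 and 5.25 (means). The other Fbln2 probe set was flat at 2.10 to 2.31. Fstl1, a secreted glycoprotein of the SPARC family, was highest in IP20D-3 (10 ± 0.13) and R1 (9.97 ± 0.12), which overlapped, and at 9.48 to 9.60 elsewhere. Its other probe set did not have IP20D-3 highest: it read 9.5 in R1, 9.35 in IP14D-1 and 9.16 in IP20D-3. Tgfbi, a matrix protein induced by TGF-beta, ranged over 0.57 and was called in no contrast.

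Timp3, the TIMP inhibitor that stays bound to the matrix, separated R1 from IP14D-101. It read 5.64, 5.92 and 5.78 in R1, 5.85, 5.72 and 6.03 in IP14D-1 and 5.48, 5.25 and 5.5 in ESC2. The other iPS lines read 4.59, 4.58 and 4.67 (IP14D-101), 4.43, 4.23 and 4.51 (IP36D-3) and 4.27, 3.82 and 4.26 (IP20D-3). Timp1, the soluble inhibitor, was highest in the line where Timp3 was lowest, with 8.78 ± 0.09 in IP20D-3 against 8.09 ± 0.07 in ESC2, and was called in no contrast. Of the proteases, Mmp14, a membrane-anchored collagenase, and Mmp2, the gelatinase it activates, were both highest in R1 (8.05 ± 0.04 and 7.13 ± 0.09) and lowest in IP20D-3 (7.01 ± 0.04 and 6.20 ± 0.18). They differed in IP36D-3, where Mmp2 (7.10 ± 0.07) overlapped with R1 and Mmp14 (7.61 ± 0.04) did not. The other Mmp2 probe set had ESC2 lowest (5.77), below IP20D-3 (5.88), and R1 level with IP36D-3 (6.85).

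The transcription factor genes moved little. Twist1, a regulator of mesenchymal fate, ran from 5.55 ± 0.08 in R1 to 4.53 ± 0.32 in IP20D-3 and was called by the F test only, as were Col5a1 and Mmp14. Snai2, a repressor of epithelial genes, was higher in ESC2 (4.78, 4.68 and 4.82) than on the other 15 arrays (3.81 to 4.33), by 0.62 to 0.75 in the 5 contrasts of a line with ESC2, under the minimum difference. The other Snai2 probe set had no such lead, with 4 in ESC2, 4.07 in IP14D-101 and 3.93 in R1. Twist2 and Prrx1 had ranges of 0.38 and 0.49. Among the small leucine-rich proteoglycans, Bgn read 6.48, 6.48 and 6.39 in ESC2 and 6.47, 6.46 and 6.52 in IP14D-1, with the other 12 arrays between 4.32 and 5.67. Dcn, decorin, had the same leading lines at 5.10 ± 0.19 and 4.93 ± 0.17 but was called in no contrast, and Lum ranged over only 0.18.

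IP14D-1 was then compared with the iPS lines of the same strain label. Against IP20D-3, 12 of 33 genes (36.4%) were higher and 0 lower, while limma called 4.96% of all genes, 2.15% as higher and 2.8% as lower. The 12 were Lox, Col5a2, Bgn, Cav1, Col3a1, Timp3, Col1a2, Fbln2, Vim, S100a4, Cdh11 and Col1a1, with log2 differences from 3.03 down to 1.14. Biglycan stood at 3.83-fold (limma adjusted p = 2.12e-09), Col5a2 at 5.29-fold or more on the probe set used (adjusted p = 5.65e-08) and Vim at 2.96-fold (adjusted p = 1.88e-10). The other Col5a2 probe set read 3.43 in IP14D-1 and 3.05 in IP20D-3, both below the silent reference. For 5 of the 12, Lox, Col5a2, Col3a1, S100a4 and Cdh11, IP20D-3 lay at or below the silent reference, and for Cdh11 IP14D-1 did too. The median difference of the 33 genes was 0.62, against 0.03 for all genes. Against IP36D-3, 11 (33.3%) were higher and 0 lower, with 3.39% of all genes called, 1.5% higher and 1.89% lower, and the median was 0.42 against 0.01. The 11 were those named above without Fbln2, which differed by 0.94. The actin ratio was alike in these 3 lines, at 1.27 ± 0.019 in IP14D-1, 1.28 ± 0.0233 in IP20D-3 and 1.26 ± 0.0218 in IP36D-3, whereas the 18S signal was lower in IP14D-1 (71.7 to 88.5) than in IP20D-3 (178 to 539) and IP36D-3 (161 to 242), and its part in the result was not tested. With the mean of all probe sets of a gene, 7 calls were kept in each contrast, and Cdh11, Col1a2, Col3a1 and Timp3 were lost in both. Both contrasts use the arrays of IP14D-1.

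IP20D-3 and IP36D-3 did not differ from each other by the same rule. limma called 0 of 33 genes, against 4.24% of all genes (2.36% higher and 1.89% lower), although 14 of the 33 had an unadjusted p under 0.05, as did 8097 of all genes. Fn1 was higher in IP20D-3 by 0.86 ± 0.08 and Mmp2 lower by 0.89 ± 0.09. The median difference was -0.13, against -0.03 for all genes.

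Comparisons with ESC2 asked how each line differs from an ES line. IP20D-3 had 9 of 33 genes lower and 1 higher, where 8.6% of all genes were called, 3.38% lower and 5.22% higher. Lox, Col5a2, Cdh11, Col1a2, Bgn, Vim, Cav1, Timp3 and Fbln2 were lower, by log2 differences of -2.88 to -1.03, and Loxl1 was higher by 1.23. Cdh11 was at least 1.61-fold lower (limma adjusted p = 8.41e-10) and Col1a2 4.47-fold lower (adjusted p = 4.59e-11). In IP36D-3, 8 genes were lower and 0 higher, where 3.38% of all genes were called, 1.47% lower and 1.91% higher: Lox, Cdh11, Col5a2, Col1a2, Bgn, Cav1, Vim and Timp3, from -2.56 to -1.02. Lox, Col5a2 and Cdh11 in IP20D-3, and Cdh11 in IP36D-3, lay at or below the silent reference. The medians of the 33 genes were -0.44 in IP20D-3 and -0.35 in IP36D-3, against 0.01 and 0.05 for all genes. In IP14D-1, 1 of 33 genes was called, Col3a1, higher by 1.04 ± 0.19, with 3.44% of all genes called, 2.08% higher and 1.36% lower. That call was lost without IP14D-1 replicate 2 (0.75) or ESC2 replicate 2 (0.93). Fbln2 in IP20D-3 fell short without ESC2 replicate 3 (-0.93) or IP20D-3 replicate 3 (-0.99), and Timp3 in IP36D-3 without ESC2 replicate 1 (-0.98), ESC2 replicate 3 (-0.97) or IP36D-3 replicate 2 (-0.94). All comparisons with ESC2 share its 3 arrays and move with its actin ratio. They also move with genes of pluripotent cells, of which 1 to 4 of 13 were higher and 0 lower than in ESC2 in each of the 5 other lines. The part of either in the results was not tested.

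R1 and IP14D-101 differ from ESC2 in strain label as well as in line. In R1, 5 genes were lower and 1 higher, with 8.13% of all genes called (3.75% lower and 4.38% higher): Lox (-2.16), Cdh11 (-2.08), Col1a2 (-1.45), Bgn (-1.43) and Col5a2 (-1.42), and Loxl1 (1.33). In IP14D-101, 6 were lower and 1 higher, with 8.73% of all genes called (4.06% lower and 4.67% higher): Lox (-2.36), Cdh11 (-2.34), Col5a2 (-1.82), Col1a2 (-1.55), Cav1 (-1.11) and Bgn (-1.03), and Loxl1 (1.29). Cdh11 in R1 and IP14D-101, and Lox in IP14D-101, lay below the silent reference. Against it, Cdh11 was at least 1.19-fold lower in R1 and 1.23-fold in IP14D-101, and Lox at least 4.96-fold in IP14D-101. With the mean of all probe sets, the calls of Bgn, Col1a2 and Loxl1 were lost in both contrasts, and that of Col5a2 in R1. The median of all genes lay at 0.15 in both contrasts, and that of the 33 genes at -0.02 and -0.05. Bgn in IP14D-101 fell short without replicate 1 of that line (-0.93). Between IP14D-101 and R1, 1 gene was called, with 2.52% of all genes called (1.82% lower and 0.698% higher): Timp3 was 2.24-fold lower in IP14D-101 (-1.17 ± 0.12, limma adjusted p = 1.04e-06), and its 3 other probe sets were lower too. With the mean of all its probe sets Timp3 was not called there.

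**Figure D4:**
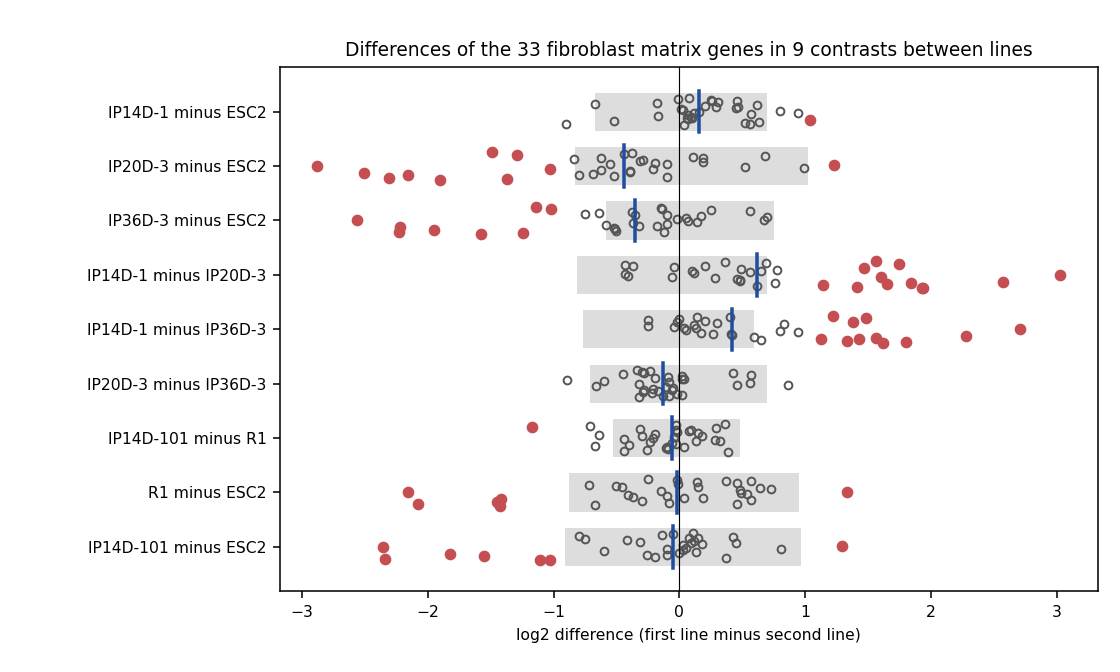
Log2 difference (horizontal axis, first line minus second) of each of the 33 genes in 9 contrasts between lines; filled points are called genes, open points are not, the short blue line is the median of the 33, and the grey bar spans the 5th to 95th percentile of all 18193 genes. Called genes lie to the right where IP14D-1 is set against IP20D-3 (12) and IP36D-3 (11) and mostly to the left where a line is set against ESC2.

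The comparison of iPS with ES lines, 4 against 2 on line means, gave no call. limma called 0 of 33 genes and 0 of 18193 (0%), with 0 of the 33 and 700 of all genes at an unadjusted p under 0.05. The largest differences were -0.91 for Col5a2, -0.90 for Cdh11, -0.85 for Timp3 and -0.83 for Lox, each with an adjusted p of 1. Lox had means of 4.90 ± 1.39 (SD, n = 4 lines) in iPS and 5.73 ± 1.52 (n = 2 lines) in ES lines, and the spread within each cell type exceeded that difference, with IP14D-1 at 6.97 beside IP20D-3 at 3.93 and ESC2 at 6.81 beside R1 at 4.66.

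Other genes of connective tissue were read from further lists, whose counts stand beside the shares of all genes called in the same contrasts: 4.96% in IP14D-1 against IP20D-3 and 3.39% against IP36D-3. These lists were counted without regard to the silent reference, so some calls involve lines below it. Of 33 measured genes of collagen processing and other matrix, 7 were higher and 1 lower in IP14D-1 against IP20D-3, and 6 higher and 0 lower against IP36D-3. Tnc, the matrix glycoprotein tenascin-C, shared the split of Lox, with 5.79 ± 0.09 in ESC2 and 5.78 ± 0.10 in IP14D-1 against 3.60 to 4.05 in the other lines. In all of these other lines Tnc lay below the silent reference. Thbs1, thrombospondin 1, did not, with R1 highest at 8.16 ± 0.11, ESC2 at 7.64 ± 0.10, IP14D-1 at 7.71 ± 0.04 and the other lines at 4.26 to 5.70. In IP14D-101 against ESC2, where 8.73% of all genes were called, 5 genes of the list were higher and 2 lower. Among the higher ones were Plod1 (1.67) and P4ha1 (1.41), which encode collagen hydroxylases, and the lower ones were Thbs1 (-1.94) and Tnc (-1.82). Of 22 other mesenchymal regulators and surface proteins, 2 were called higher in IP14D-1 against IP20D-3, Cd44 and Nt5e, and 1 against IP36D-3, Cd44. The surface protein gene Cd44 was at 6.04 ± 0.14 in ESC2 and 5.71 ± 0.18 in IP14D-1, with R1 at 5.33 ± 0.19 and the other lines at 3.33 to 4.70, and Pdgfra, a gene of fibroblasts and of primitive endoderm, was called only where IP14D-101 was compared, at 5.46 ± 0.15 against 3.64 to 4.26. In those contrasts 12 and 11 of 19 primitive endoderm genes were higher too, Pdgfra included. Cd44 in IP20D-3 and IP14D-101, and Pdgfra in R1 and ESC2, lay below the silent reference.

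Markers of contractile cells moved with the fibroblast matrix genes in some contrasts and against them in others. Of 15 contractile genes, 13 were higher in IP14D-1 against IP20D-3 (2.15% of all genes were) and 5 against IP36D-3 (1.5%), and 10 were lower in IP20D-3 (3.38%) and 5 in IP36D-3 (1.47%) against ESC2. In R1, by contrast, 5 were higher (4.38%) and 1 lower (3.75%) than in ESC2. Acta2, smooth muscle actin, stood at 10.03 ± 0.09 in IP14D-1 and 8.87 ± 0.13 in ESC2, with R1 at 8.39 ± 0.16 and IP20D-3 lowest at 6.14 ± 0.14. Tagln, an actin-binding protein, was highest in R1 at 12.01 ± 0.10, where Lox and Cdh11 were low. Summed intensities were 15142 to 16736 in R1, 11033 to 11445 in IP14D-1, 9110 to 9683 in ESC2 and 2990 to 6479 in the other 3 lines, and their part in the differences of the fibroblast matrix genes was not tested.

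**Figure D5:**
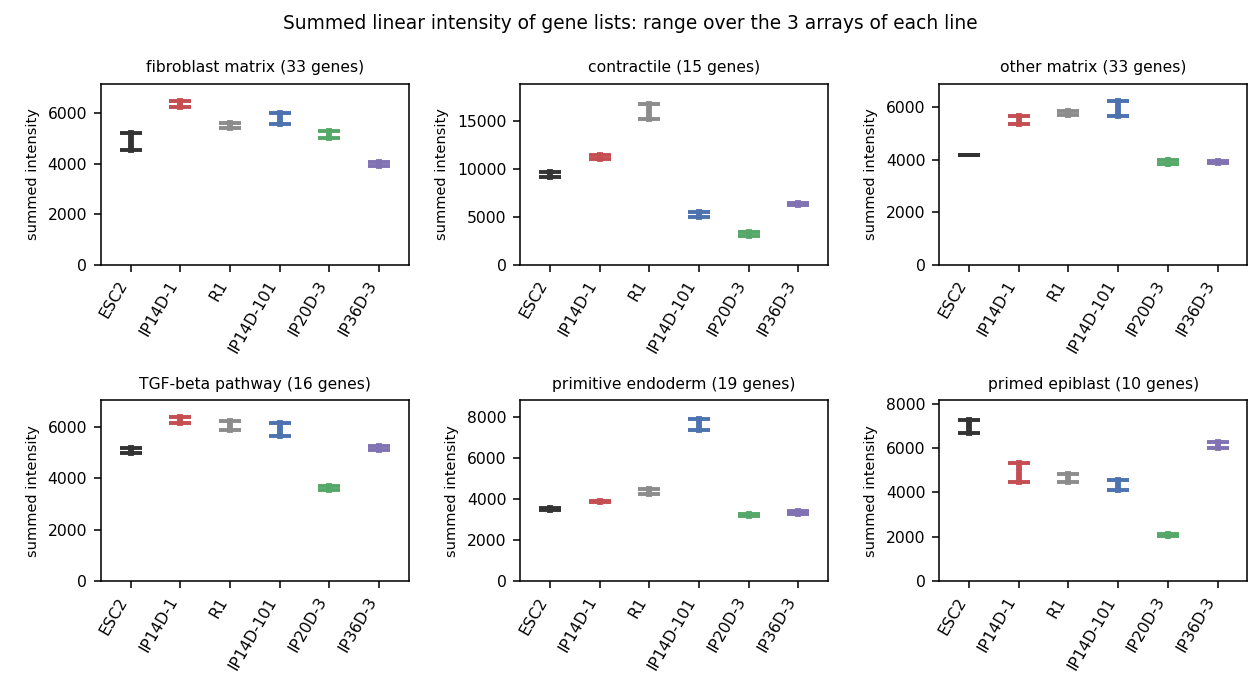
Summed linear intensity of 6 gene lists in each line, where a bar spans the lowest to the highest of 3 arrays and axes start at 0. IP14D-1 is highest for the fibroblast matrix genes (6244 to 6499), R1 for contractile genes and IP14D-101 for primitive endoderm genes.

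The summed intensity of the 33 genes, in which the brightest probe sets weigh most, was 6244 to 6499 in IP14D-1, 5578 to 6020 in IP14D-101, 5409 to 5596 in R1, 5012 to 5315 in IP20D-3, 4561 to 5235 in ESC2 and 3927 to 4085 in IP36D-3. By this sum ESC2 was not high, unlike in the order for Lox and Col1a2. The counts of the next lists can be read against 4.96% of all genes called in IP14D-1 against IP20D-3, 3.39% against IP36D-3, 8.6% in IP20D-3 against ESC2 and 4.24% in IP20D-3 against IP36D-3. Of 16 TGF-beta pathway genes, 4 were higher in IP14D-1 against IP20D-3, namely Smad7, Tgfb2, Tgfb1 and Skil, and Tgfb2 (1.89) and Smad7 (1.06) were higher against IP36D-3. Tgfb2 lay below the silent reference in IP20D-3 (4.03) and IP36D-3 (3.59). Of 10 primed epiblast genes, 7 were lower in IP20D-3 than in ESC2, in IP14D-1 and in IP36D-3, so these genes changed between IP20D-3 and IP36D-3 where the fibroblast matrix genes gave no call. Primitive endoderm genes, which include basement membrane components, were higher in IP14D-101 for 12 of 19 against ESC2 (4.67% of all genes were) and 11 of 19 against R1 (0.698%). Of 13 pluripotent cell genes, 0 were called between IP14D-1 and IP20D-3 or IP36D-3, with 7 and 9 at an unadjusted p under 0.05 by limma. Against ESC2, however, 2 were higher in IP14D-1, 2 in IP20D-3, 1 in IP36D-3, 3 in R1 and 4 in IP14D-101, and none was lower. Esrrb, a transcription factor gene of naive pluripotent cells, was called in each of these 5 contrasts, by 1 in IP36D-3 to 2.19 in IP14D-101. Of 14 primitive streak and mesoderm genes, 4 were lower in IP20D-3 than in ESC2, namely Bmp4, Evx1, Wnt3 and Eomes, and 0 differed by the rule between IP14D-1 and IP20D-3 or IP36D-3 (8 and 3 at an unadjusted p under 0.05). Wnt3 lay below the silent reference in both IP20D-3 (2.87) and ESC2 (4.01), and Evx1 did in IP20D-3 (3.87). Of 7 endothelium genes, 2 were lower in IP14D-1 than in IP20D-3, Pecam1 and Tek, and of 7 neural genes 1, Pax6, was lower in IP14D-1 than in IP36D-3. Of 8 macrophage genes, limma called 0 in any of the 10 contrasts, with 0 to 4 at an unadjusted p under 0.05, and their summed intensity stayed between 206 and 312 on all arrays.

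Arrays of the same line differed for some of the genes. In IP14D-1, replicate 2 was the highest for Col1a1, Col3a1, Cav1, S100a4 and Postn, but not for Lox, Col1a2 or Bgn. In IP14D-101, replicate 3 was the highest of the 3 arrays for 23 of the 33 genes (69.7%), against 52% of all genes. For Lox, Col5a2 and Bgn, the arrays of ESC2 and IP14D-1 did not overlap with those of any other line. The spread within a line was not small for all of these, as Col5a2 ran from 3.46 to 4.61 in IP20D-3.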

How the data were processed

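The authors made the probe set intensities with RMA, per the submitters' processing notes and the series' design text (version not given in the sources used here). RMA removes background, equalises the distributions of the arrays and summarises probes, so a difference shared by most genes would be hidden, and low values are compressed. The deposited intensity values were on a linear scale and were taken to log2. Of 45101 probe sets, 64 controls were left out, 932 carried several symbols, 9160 none and 34945 a single symbol, from the platform annotation; 34741 of these matched the RefSeq table by gene identifier and 0 symbols changed. They gave 18193 genes, each read from its probe set with the highest mean, and 23 of the 33 genes had several probe sets. Different probe sets bind differently, so the silent reference is only a rough background level, and the order of genes in a plot and sums over genes do not compare abundance between genes.

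limma 3.58.1 (R 4.3.3) was fitted to log2 values with a mean per line over 18 arrays (12 residual degrees of freedom) and Benjamini-Hochberg adjustment over all genes; iPS and ES lines were compared on 6 line means. The number of arrays limits the precision. Tables and plots were made in Python 3.11.15 (numpy 2.4.6, pandas 2.3.3, matplotlib 3.10.9), and the steps were tested on simulated data. All 33 genes are named, with up to 12 called per contrast and up to 4 called genes of each other list; levels of a list's defining genes were also allowed. The line orders of Tnc and Cd44 were described after their values were seen. The other lists were collagen processing and other matrix, other mesenchymal regulators and surface proteins, contractile, TGF-beta pathway, primitive endoderm, primitive streak and mesoderm, primed epiblast, pluripotent cell, macrophage, endothelium and neural genes. The members and all lists were chosen with earlier results of these data known. Alternatives covered the probe set, the scaling, low values, the variance model, array weights, the call rule, a replicate block and leaving out each array.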

Additional observations from a re-analysis of the deposited data

Results flagged for a closer look

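Among the 4 iPS lines, the line mean of 6 of the 33 genes stood apart from the other 3 by Dixon's criterion for the gap over the range, which chance alone meets in about 1 of 20 groups. That is 18.2% of the genes, against 4.4% of all genes. In IP14D-1, Lox stood at 6.97 (others 3.93 to 4.45), Cav1 at 6.32 (4.38 to 4.65), Cdh11 at 3.90 (2.47 to 2.58), Postn at 4.43 (3.61 to 3.65) and Dcn at 4.93 (4.47 to 4.52). In IP20D-3, Fstl1 stood at 10 (9.53 to 9.60), while on its other probe set IP14D-1 (9.35) lay above IP20D-3 (9.16). Postn in all 4 iPS lines and Cdh11 in all 4 iPS lines did not pass the silent reference, and Dcn was not called in any contrast.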

How the results depend on the processing

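Of 56 called differences, 0 were reversed under the alternatives run. The call was kept for 56 with an intensity trend and 56 with the replicate block. It was kept for 55 each with arrays centred on their median, repeated quantile normalisation and array weights. With log2 of intensity plus 16, which shrinks differences of low values, 35 were kept, and 33 with the mean of all probe sets, some of which are flat near background. Dropping the minimum difference can only add calls, so it is no check of the 56. Only 8 of the 33 genes reach the median level, and all 4 called differences tested there were kept. With no minimum difference many of all genes pass too. Of 18193 genes, 6096 to 11114 had an unadjusted limma p under 0.05 in contrasts between lines, and 14620 by the F test. The counts with no minimum are therefore not read as results about the 33 genes. Called genes under these settings were as follows, and a setting not named left the count as it was. IP14D-1 against ESC2 (1): 0 by mean of probe sets, centring, median level, plus 16 and array weights, 2 by quantile normalisation and 17 with no minimum. IP20D-3 against ESC2 (10): 7 by mean of probe sets, 1 at median level, 6 by plus 16 and 24 with no minimum. IP36D-3 against ESC2 (8): 6 by mean of probe sets and by plus 16, 1 at median level and 21 with no minimum. IP14D-1 against IP20D-3 (12): 7 by mean of probe sets, 8 by plus 16, 1 at median level and 28 with no minimum. IP14D-1 against IP36D-3 (11): 7 by mean of probe sets and by plus 16, 1 at median level and 21 with no minimum. IP20D-3 against IP36D-3 (0): 11 with no minimum and 0 otherwise. IP14D-101 against R1 (1): 0 by mean of probe sets, median level and plus 16, and 11 with no minimum. R1 against ESC2 (6): 2 by mean of probe sets, 4 by plus 16, 0 at median level and 23 with no minimum. IP14D-101 against ESC2 (7): 4 by mean of probe sets and by plus 16, 0 at median level and 16 with no minimum. The F test (16): 12 by mean of probe sets, 3 at median level, 10 by plus 16 and 30 with no minimum. Of its 16 genes, 14 were kept by centring and 15 by quantile normalisation, each with genes gained. iPS against ES gave 0 in every setting run, fixed line means over 18 arrays included. That last setting could give no call, because its differences are those of the main fit, where the largest was -0.91 (Col5a2). Leaving out an array gave, in the same order, 0 to 2, 9 to 11, 7 to 8, 11 to 12, 10 to 11, 0, 1, 6, 6 to 7 and, for the F test, 15 to 17, and 0 for iPS against ES; 326 of 336 called differences were kept. With the replicate block the counts stayed at 1, 10, 8, 12, 11, 0, 1, 6 and 7, and 16 for the F test; correlations of same-numbered arrays ran from -0.246 to 0.255 (13 of 45 pairs above 0.1), 13 of 18 arrays were closest to their own number, and the numbers were not taken as pairs. Beyond what is stated, the cause of a change was not tested. Signal over background limits Col6a1, Postn, Prrx1, Lum and Fap in all 6 lines, Cdh11 and Col3a1 in 5, S100a4 and Snai2 in 4, Lox in IP14D-101 and IP20D-3, Col5a2 in IP20D-3 and Dcn in IP14D-101, where they lie at or below the silent reference and the size of a difference is uncertain.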
